A study of Mus musculus with 12 samples.

Results

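The nuclei described here were those in the forebrain of newborn mice that carried RNA of genes of cell division. They were chosen by their own RNA. A nucleus was counted as cycling where it held at least 4 unique molecular identifiers (UMIs, tags that each stand for 1 captured RNA molecule) of Mki67, Top2a, Cenpf, Cenpe, Kif11 and Aspm together, with at least 2 of these 6 genes detected. Of 101802 nuclei that passed the filter of 800 to 6000 UMIs, 300 to 3000 genes and at most 1% mitochondrial UMIs, 1528 met this rule, which is 1.501%. The levels of the 6 genes in these nuclei are therefore set by the rule and carry no test.

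Single-nucleus RNA-seq had been run on forebrain of mice at postnatal day 1 (P1), with 1 library per animal, 8 wild type (WT) and 4 heterozygous (Het). The Het animals carried 1 copy of the frameshift allele S710fsX of Myt1l, a zinc-finger transcription factor of neurons, on the C57BL/6 background, and came from crosses of Het with C57BL/6J mice. The WT group held 5 males and 3 females and the Het group 3 males and 1 female. The label is forebrain, although the methods of the study name prefrontal cortex in 1 place, and nothing else was given to either group. The animals came from 4 litters that were not tied to single samples in the labels.

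At this age the neurons of the cerebral cortex have been born, and division goes on in the germinal zones that line the ventricles and in glia throughout the tissue. Neural stem cells of the ventricular wall pass through a transit-amplifying stage with EGF receptor on the surface before they give rise to neuroblasts for the olfactory bulb, while oligodendrocyte precursors and young astrocytes divide where they sit. Vessels, meninges and resident macrophages of the brain also grow by division in the first days after birth. A dividing cell copies its DNA in S phase with the replication machinery, then builds the mitotic spindle, kinetochores and condensed chromosomes in G2 and M phase.

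Transcription of these sets of genes is timed by different promoter elements. Genes of G1/S are typically bound by E2F factors, and genes of G2/M by the DREAM and MuvB complexes at the cell cycle genes homology region (CHR), often beside CCAAT boxes bound by NF-Y. The promoters of 4 genes that peak at different points are shown to make this visible, from RefSeq on GRCm38.p6, each running from 250 bases before the start site to 50 after it on the gene's strand. Mki67, for a coat protein of mitotic chromosomes, was at chr7:135716330-135716629 (minus strand). Top2a, for the topoisomerase that separates replicated DNA, was at chr11:99024140-99024439 (minus strand). Cdk1, for the kinase that starts mitosis, was at chr10:69352863-69353162 (minus strand), and Pola1, for the catalytic subunit of the polymerase that primes replication, was at chrX:93632106-93632405 (minus strand). Capitals mark 3 motifs on either strand. For the CHR the letters searched were TTTGAA. A second form of it, TTCGAA, was searched as well. For NF-Y the letters were CCAAT, and for E2F they were TTTCCCGC, TTTGGCGC, TTTCGCGC or TTTGCCGC.
Mki67: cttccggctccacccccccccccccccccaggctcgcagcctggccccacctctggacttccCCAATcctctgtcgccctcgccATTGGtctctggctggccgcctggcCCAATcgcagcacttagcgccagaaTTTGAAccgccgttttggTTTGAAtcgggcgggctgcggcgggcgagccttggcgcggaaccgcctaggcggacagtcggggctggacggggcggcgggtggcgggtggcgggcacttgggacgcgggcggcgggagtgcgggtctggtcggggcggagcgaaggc
Top2a: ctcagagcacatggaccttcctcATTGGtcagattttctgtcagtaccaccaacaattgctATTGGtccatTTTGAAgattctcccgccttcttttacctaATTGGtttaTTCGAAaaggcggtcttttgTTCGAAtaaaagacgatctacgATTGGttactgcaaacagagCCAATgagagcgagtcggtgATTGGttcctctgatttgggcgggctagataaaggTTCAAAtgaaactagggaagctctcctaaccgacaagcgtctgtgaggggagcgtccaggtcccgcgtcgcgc
Cdk1: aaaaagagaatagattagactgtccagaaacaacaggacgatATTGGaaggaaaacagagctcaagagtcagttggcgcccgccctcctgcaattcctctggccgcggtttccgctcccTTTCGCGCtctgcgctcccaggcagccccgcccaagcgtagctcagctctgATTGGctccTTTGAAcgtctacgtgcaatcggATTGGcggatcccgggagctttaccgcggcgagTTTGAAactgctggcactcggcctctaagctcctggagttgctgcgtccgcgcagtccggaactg
Pola1: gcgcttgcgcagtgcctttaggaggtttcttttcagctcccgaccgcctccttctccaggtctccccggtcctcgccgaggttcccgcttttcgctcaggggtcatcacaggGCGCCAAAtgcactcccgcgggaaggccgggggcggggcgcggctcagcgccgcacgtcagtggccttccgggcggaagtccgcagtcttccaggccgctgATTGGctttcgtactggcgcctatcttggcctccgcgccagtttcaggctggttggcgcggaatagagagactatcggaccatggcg
The Mki67 window held 2 CHR matches and 3 CCAAT matches, the Top2a window 4 and 6, and the Cdk1 window 2 and 3 with 1 E2F match. The Pola1 window held 1 E2F match, 1 CCAAT match and no CHR letters.

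The same letters were counted over the gene lists, of which part had a window. CHR letters were in 5 of the 6 rule genes' windows, in 32 of 42 windows of the other G2/M genes (76.2%) and in 6 of 31 windows of S phase genes (19.4%), against 21.7% of the 27025 genes with a window. E2F letters were in 3 of the 42 G2/M windows (7.14%), 12 of the 31 S phase windows (38.7%) and 13 of 23 windows of replication licensing and fork genes (56.5%), against 2.61% of all genes. CCAAT was present in 31 of the 42 and 22 of the 31 windows, against 41.1% of all genes. A match of letters is not a bound site, and matches of different motifs may share bases, since each was searched on its own.

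The nuclei were alike in depth across libraries. The libraries held between 15439429 and 40784144 UMIs over 6014 to 16782 barcodes, and the median UMI count per nucleus ranged from 1787.5 to 2218. The 1528 cycling nuclei held 3512830 UMIs, with a median of 1962 UMIs per nucleus against 2001 in the other nuclei. No cell barcode was shared between libraries. More nuclei passed the filter in the Het libraries, a mean of 10567 against 7442 in WT (exact permutation test, two-sided, p = 0.0323). The 4 Het libraries were among the 6 with most nuclei, and the part of this in other differences was not tested.

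Top2a and Mki67 made most of the calls. Top2a was detected in 87.5% of cycling nuclei at a mean of 2.32 UMIs, and in 1.64% of the others. Mki67 was detected in 84.3% at a mean of 2.10 UMIs, and in 1.73% of the others. Kif11, for the motor that pushes the spindle poles apart, was in 61.5%, Cenpe, for the kinetochore motor, in 60.5%, Aspm, for a spindle pole protein whose loss causes microcephaly, in 47.6%, and Cenpf, for a large kinetochore protein, in 46.8%.

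The threshold cut through a graded population. Levels of the list of 49 G2/M genes that are not in the rule rose from 6.99 UMIs per 10000 in the 94201 nuclei with no rule-gene UMI to 37.1 in the 385 nuclei with 3, 48.8 in the 291 members with 4 and 107 in the 415 members with at least 10. The list of 43 S phase genes stood at 5.72, 32.0, 36.5 and 21.7 in the same 4 sets of nuclei. Nuclei just below the threshold thus carried cycle genes too, and members with most rule-gene UMIs had less of the S phase list. A further 14 nuclei had 4 or more UMIs from a single gene and were not counted. Nuclei placed among neurons, which should not divide, met the rule in 39 of 21348 cases (0.183%), where all 21348 had a median of 1933 UMIs. Why the 39 met the rule was not tested. These were the 4 named neuron classes, and 18 of the 39 were interneuron-like. Those that met the rule had median UMIs of 3812.5 (interneuron-like), 2612 (striatal projection neuron-like), 4105 (Cajal-Retzius-like) and 2663.5 (excitatory neuron-like). Doublet scores in the top 5% of the library were held by 33.3%, 0%, 40% and 0% of them in that order. Unnamed classes that scored highest for excitatory neurons were not counted. Those led by Rorb, Ntf3, Tshr, Nwd2, Tle4 and Tfap2d had shares from 0.0351% to 0.0965%, and the one led by Adamts2 held no cycling nucleus. Only the one led by Nr4a2 was above 0.183%, at 0.295% on 4 nuclei (exact 95% interval 0.0804 to 0.753). Unnamed classes that scored highest for interneurons or striatal projection neurons were not counted either. The one led by Rarb was at 0.581% on 7 nuclei, of which 71.4% had doublet scores in the top 5%. Those led by Sfta3-ps, Elfn1 and Tshz1 were at 0.490%, 0.201% and 0.0881% on 1, 5 and 1 nuclei, and the one led by Lhx8 held none.

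The share of cycling nuclei did not differ between genotypes beyond the spread of libraries. In WT it was 1.69% (187 nuclei), 1.13% (83), 1.55% (96), 2.19% (118) and 1.63% (134) in males 1 to 5, and 1.28% (81), 1.52% (155) and 1.48% (71) in females 1 to 3. In Het it was 1.16% (127), 1.23% (132) and 1.69% (199) in males 1 to 3 and 1.64% (145) in the female. The Het values all lay within the WT range, with 2 below and 2 above the WT mean. The means were 1.56% ± 0.313 for WT (SD, n = 8) and 1.43% ± 0.276 for Het (SD, n = 4), a difference of -0.127 percentage points (exact permutation test, two-sided, p = 0.558, where 0.00404 is the smallest p that 495 splits allow). Leaving out 1 library at a time moved this difference between -0.214, without Het male 3, and -0.0358, without Het male 1, and it was -0.0373 without WT male 4. With each nucleus thinned to 800 UMIs and the rule lowered to 2 UMIs, the means were 1.396% and 1.29% (exact permutation test, two-sided, p = 0.533).

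**Figure D1:**
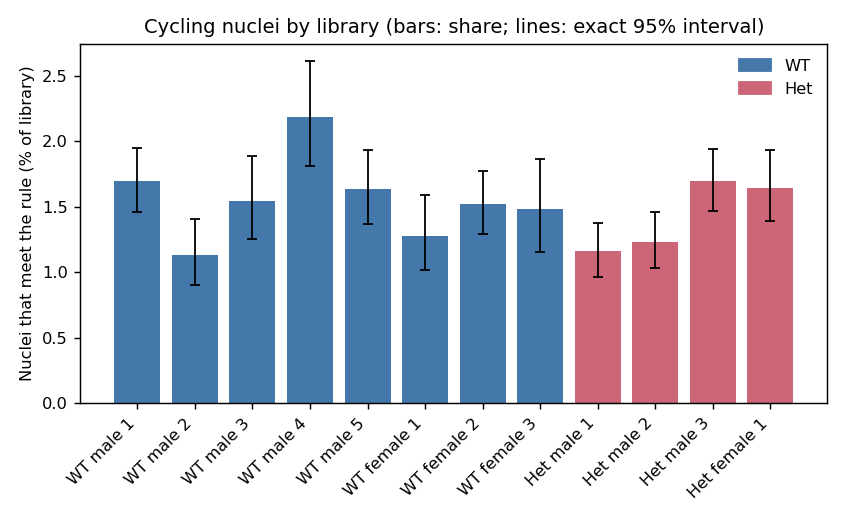
Share of cycling nuclei by library: bars give the nuclei that met the rule as percent of the nuclei of a library that passed the filter, and lines the exact 95% binomial interval, which covers counting error only. The 8 WT libraries (blue) ran from 1.13% to 2.19% and the 4 Het libraries (red) from 1.16% to 1.69%, so the groups overlap.

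To ask which lineages divide, the other 100274 nuclei were clustered without cycle genes, clusters were named from marker lists, and each cycling nucleus took the class most common among its 20 nearest neighbours. The label of progenitors did not hold for all cycling nuclei. The largest classes were of germinal zone and glial character, and fibroblast-like, endothelial-like and Mrc1-led nuclei together with ciliated ones were also present. Classes numbered 36 with at least 1 cycling nucleus, 9 with at least 30, and the 9 held 1340 of the 1528. The text therefore speaks of cycling nuclei. A class was left unnamed where its markers did not single out 1 type, and 617 cycling nuclei were in unnamed classes. Placed by marker genes alone, without neighbours, 797 of the 1528 took a class and 405 took the same class as by neighbours, where an unnamed class cannot match. Of the 151 oligodendrocyte lineage-like nuclei below, markers alone placed 11 there and 22 as interneuron-like and left 118 unplaced, so the class of a single nucleus is uncertain.

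The class in which the highest share of nuclei was cycling was an unnamed class led by Egfr. It held 345 cycling nuclei, 22.6% of all, and these were 25.7% of its 1344 nuclei (exact 95% interval 23.4 to 28.1, counting error only). Its nuclei that missed the rule were led by Egfr, Neil3, Atad2, Rad51b, Dtl, Cdk6 and Knl1, most of which serve the cycle. This was so although 206 listed and 99 further cycle-linked genes had been left out of the clustering. The part of cycle genes in its place at the top was not tested. Among cycling nuclei it was marked, as a description, by Edar (110 CPM, UMIs of the gene scaled to a common total, against 19.2 in the other cycling nuclei), the lincRNA Gm29260 (3765 against 666), Insm1 (107 against 19.7), a zinc-finger factor of basal and delaminating progenitors, Celsr1 (122 against 27.2), a planar polarity cadherin, Egfr (1224 against 275), the hedgehog co-receptors Cdon (1076 against 247) and Gas1 (124 against 30.5), and Sox1 (88.0 against 21.9). Dlx1, a homeobox factor of GABAergic precursors, stood at 576 CPM in its cycling nuclei and 259 in its others, and Pax6 at 185 and 93.1.

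The Egfr-led class was left unnamed because its highest marker list scored too little above the next, and its nuclei held UMIs of several lists. Of its 345 cycling nuclei, 201 held a UMI of the GABAergic progenitor markers and none of the intermediate progenitor markers, 23 the reverse, 38 both and 83 neither. By region, 103 held subpallial markers (Dlx1, Dlx2, Lhx6 and others) only, 73 pallial markers (Pax6, Lhx2, Eomes, Emx2 and others) only, 66 both and 103 neither. Astroglia or radial glia markers with GABAergic markers were in 208 of the 345. Both were also held by 138 of the 309 astroglia or radial glia-like, 65 of the 96 Tnc-led and 22 of the 102 fibroblast-like cycling nuclei. Free RNA was not subtracted, so UMIs of both lists in 1 nucleus do not show a mixed identity. Pax6, counted here with the pallial markers, is also used in the lateral ventricular wall.

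Nuclei of the Egfr-led class that missed the rule had the S phase list at nearly the level of those that met it. Its cycling nuclei stood at 48.4 UMIs per 10000 for the S phase list and its others at 46.7, against 28.6 and 9.19 in the astroglia or radial glia-like class. The G2/M list was at 103 and 29.2. Of the 43 S phase genes 19 were higher in the cycling nuclei and 24 lower, while all 49 G2/M genes were higher. Mki67 was detected in 16.2% and Top2a in 18.02% of the nuclei of this class that missed the rule, against 2.51% and 2.61% in the astroglia or radial glia-like class. The 25.7% thus counts the nuclei past the threshold of the rule only.

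**Figure D2:**
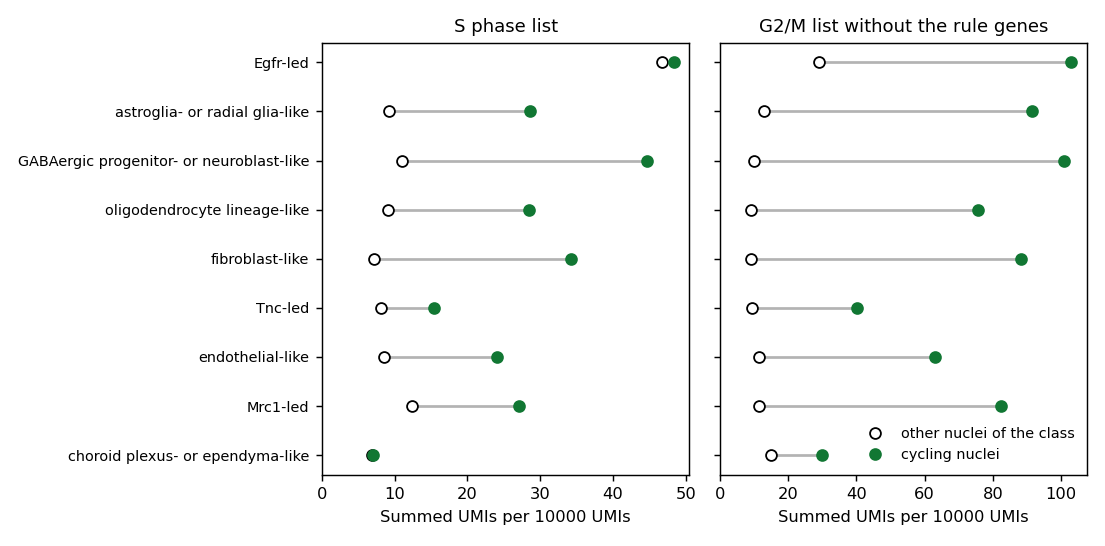
S phase and G2/M lists by class: summed UMIs of the 43 S phase genes (left) and of the 49 G2/M genes outside the rule (right) per 10000 UMIs, pooled over libraries, for the cycling nuclei (filled) and the other nuclei (open) of the 9 classes with at least 30 cycling nuclei. The S phase points nearly coincide in the Egfr-led class, at 48.4 and 46.7, and in the choroid plexus or ependyma-like class, at 7.09 and 6.89.

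Astroglia or radial glia-like nuclei were the next class, with 309 cycling nuclei (20.2% of all, 4.07% of its 7588 nuclei, interval 3.64 to 4.54). The 13 markers of the class summed to 91.4 UMIs per 10000 in its cycling and 101.6 in its other nuclei, and 11 of the 13 were lower in the cycling ones. Tnc, an extracellular matrix protein, was at 3383 CPM in the cycling and 3313 in the other nuclei, the glutamate transporter gene Slc1a3 at 2936 and 2917, and Gli3, a hedgehog pathway factor, at 567 and 607. Slc1a2, the glutamate transporter of mature astrocytes, was at 836 and 1252. Against the other cycling nuclei they were led by Ano1 (279 against 19.98 CPM), Ccdc80 (115 against 9.38), Trim9 (1704 against 187), Fgfr3 (184 against 20.5), a receptor of astroglia, Grm3 (2830 against 363) and the GABA transporter gene Slc6a11 (383 against 49.2). Intermediate progenitor markers were in 13 of the 309. The class joined a cluster led by Tnc and Fabp7, with 251 of the cycling nuclei and 4012 others, and a cluster led by Veph1 and Hgf, with 55 and 3267, while the remaining 3 had neighbours mostly in another cluster, so its cycling and other nuclei differ in their mix of clusters.

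GABAergic progenitor or neuroblast-like nuclei came next with 179 (11.7% of all, 7.58% of their class, interval 6.55 to 8.72). Dlx6os1, an antisense RNA of the Dlx locus, was at 2695 CPM in the cycling and 1098 in the other nuclei, Dlx1 at 1167 and 309, and Etv1 at 613 and 414. Whether strand entered the counting is not stated, so Dlx6os1 cannot be told apart from the gene it overlaps. The class joined 2 unlike clusters. The one led by Lgr5, Dlx6os1 and Dlx1 held 175 of the 179 cycling nuclei and 1055 others, and the one led by Cpne6 and Frmd7 held 4 and 1127. The 7.58% thus averages over both, and each value given for cycling against other nuclei of this class sets different mixes of these clusters side by side. Subpallial markers alone were in 118 of the 179 and pallial markers alone in 10. The S phase list stood at 44.6 and 11.1 UMIs per 10000 and the G2/M list at 101 and 10.0.

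Oligodendrocyte lineage-like nuclei gave 151 (9.88% of all, 4.76% of their class, interval 4.04 to 5.56). The 11 markers of the class summed to 95.1 UMIs per 10000 in its cycling and 118.5 in its other nuclei, and 9 of the 11 were lower in the cycling ones. Pdgfra, the PDGF receptor of oligodendrocyte precursors, was at 789 CPM in the cycling and 806 in the other nuclei, Cspg4, the NG2 proteoglycan, at 266 and 275, Olig2 at 174 and 147 and Sox10 at 111 and 153. Lhfpl3 was at 7938 and 9867. Leading genes against the other cycling nuclei were Col19a1 (743 against 17.4 CPM), Pstpip2 (369 against 9.28), Tmem132d (1244 against 44.7) and Brinp3 (2049 against 142).

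Classes outside the neural lineage also held cycling nuclei. Fibroblast-like nuclei gave 102 (2.79% of their class, interval 2.28 to 3.38) and were led by Tbx15, Tbx18, Prdm6 and Lepr, with the collagen gene Col1a2 at 969 CPM against 1372 in the other nuclei of the class. Their fibroblast markers summed to 37.7 UMIs per 10000 and their astroglia or radial glia markers to 35.4, against 53.6 and 43.2 in the other nuclei of the class. Markers alone placed 12 of the 102 as fibroblast-like and 8 as astroglia or radial glia-like, and left 79 unplaced. Endothelial-like nuclei gave 65 in 10 libraries (4.90%, interval 3.80 to 6.21), led by Egfl7, Adgrf5, Adgrl4 and Ptprb, with the VEGF receptor gene Kdr at 956 and 1241 CPM. A class led by Mrc1 gave 55 (8.36% of 658, interval 6.36 to 10.7). It scored highest for the microglia list but was left unnamed, since its leading genes Mrc1, F13a1, Stab1 and Dab2 are better known from macrophages of the brain's borders. Mrc1 was at 3390 and 4892 CPM there and Csf1r and P2ry12, of microglia, at 504 and 427 and at 357 and 306. In all 3 classes the G2/M list was several times higher in the cycling than in the other nuclei (88.4 and 9.10, 63.1 and 11.6, and 82.4 and 11.4 UMIs per 10000).

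An unnamed class led by Tnc held 96 cycling nuclei (6.28% of all, 4.14% of the class), and 77.1% of these had doublet scores in the top 5% of their library, at a median of 4125 UMIs. Over all cycling nuclei the share with such scores was 10.2%, against 4.92% of the other nuclei. In the Egfr-led, astroglia or radial glia-like, GABAergic and oligodendrocyte classes it was between 0.559% and 1.99%, in the Mrc1-led class 3.64%, in the endothelial-like class 10.8% and in the fibroblast-like class 11.8%. The part of mixed barcodes in these classes was not tested.

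The class named for intermediate progenitors, the dividing cells that make excitatory neurons of the cortex before birth, gave 22 cycling nuclei of 2256 (0.975%, interval 0.612 to 1.47). Its count does not cover all nuclei with these markers. The Egfr-led class, left unnamed, scored highest for the intermediate progenitor list too, a score taken over its nuclei that missed the rule. Its mean log2 difference from other clusters was 1.74, with 5 of 7 markers raised, against 1.24 for the GABAergic list. In its cycling nuclei the 7 markers summed to 1.44 UMIs per 10000, against 2.12 in its others, with 1 marker higher and 5 lower. Eomes, the T-box factor that marks them, was at 55.9 CPM in the cycling nuclei of the Egfr-led class, and 66 UMIs of it were found in all cycling nuclei.

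The rule took in 38 nuclei of ciliated character whose cycle genes differed from those of the other cycling nuclei. All were placed in 1 cluster of the choroid plexus or ependyma-like class and were led by Cdc20b (5262 CPM against 1.03 in the other cycling nuclei), Deup1 (1382 against 1.51), a protein of the deuterosome, the platform on which multiciliated cells make centrioles in number, the axonemal dynein genes Dnah12 (3431 against 4.35) and Dnah3 (961 against 1.61), and Crocc2 (1627 against 2.54). Top2a was detected in 97.4% of them at a mean of 3.38 UMIs and Cenpf in 65.8%, but Mki67 in 10.5% and Kif11 in 10.5%, where Mki67 was in 84.3% of all cycling nuclei. The S phase list stood at 7.09 UMIs per 10000 in these nuclei and 6.89 in the others of the class, and the G2/M list at 29.9 and 14.9. The other nuclei of the class were 496 in the same cluster, led by Dnah12 and Cdc20b, and 259 in a cluster led by Ttr that held none of the 38, so these values set different mixes of clusters side by side. Among genes of centriole assembly Stil was at 461 CPM in the ciliated cycling nuclei and 94.8 in those others, Cep135 at 441 and 130, Cep152 at 328 and 120, Kif24 at 573 and 226, and the factors of multiciliated cell differentiation Foxj1 and Ccno were at 637 and 251 and at 216 and 47.8. Foxj1 and Ccno belong to the 12 markers of the class, of which 4 were higher and 8 lower in the cycling nuclei. The 12 summed to 14.6 UMIs per 10000 in the cycling nuclei and 37.1 in the others of the class.

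**Figure D3:**
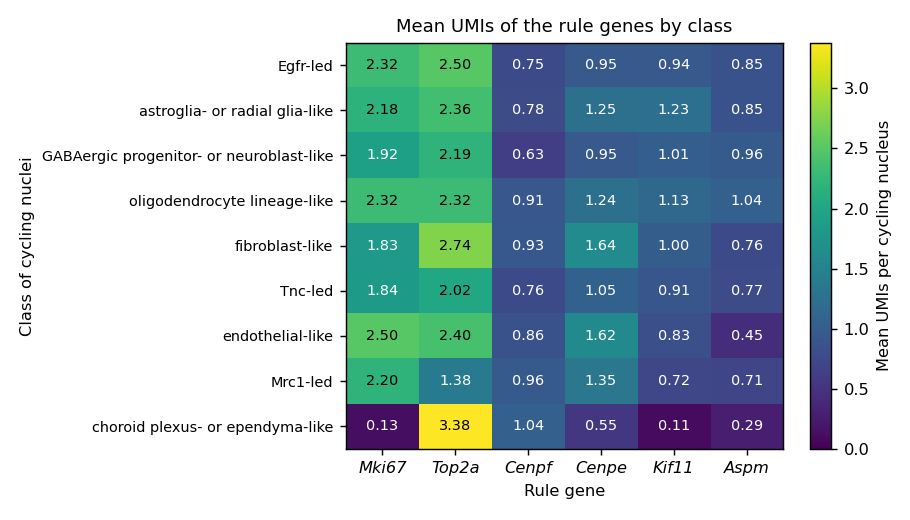
Rule genes by class: the colour and the printed value give the mean UMIs per cycling nucleus of each of the 6 rule genes (columns) in the 9 classes with at least 30 cycling nuclei (rows). The choroid plexus or ependyma-like class stands apart, with 3.38 UMIs of Top2a and 0.13 of Mki67.

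By library these ciliated nuclei numbered 3, 3, 0, 0 and 0 in WT males 1 to 5 and 0, 9 and 0 in WT females 1 to 3, and 11, 6 and 2 in Het males 1 to 3 and 4 in the Het female. They were found in 3 of 8 WT and in all 4 Het libraries, and their share of the cycling nuclei was 1.38% ± 2.21 for WT (SD, n = 8) and 4.24% ± 3.28 for Het (SD, n = 4), with no test since the class held under 5% of the cycling nuclei. The class as a whole was small in the WT libraries without them, at 2 to 14 nuclei, against 17 to 207 in the Het and 56 to 102 in the other WT libraries. Of the nuclei of the class 0% to 8.82% met the rule in WT and 1.12% to 23.5% in Het, so the groups overlapped. Their Mki67 UMIs summed to at most 2 in a library.

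The genes that set cycling nuclei apart were read in 2 ways, both as descriptions with no test since the rule chose these nuclei. The first was the ratio of CPM in all cycling to all other nuclei, and the second the median of that ratio within the 8 classes that held at least 50 cycling nuclei, which holds the class fixed but not the mix of clusters within a class. Of 12071 genes with at least 20 UMIs in cycling nuclei, 20% were over 2-fold higher in the first reading and 3.29% in the second, with medians over all genes of 1.30 and 0.97.

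Mitotic genes held in both readings. Of 48 counted G2/M genes, 47 were over 2-fold higher, with a median ratio of 53.2, and 46 within classes, with a median of 9.25. The spindle and cytokinesis list gave 22 of 22 in both, led by Diaph3 (813 CPM in cycling and 45.2 in other nuclei), an actin nucleator of the cleavage furrow, Kif15 (463 and 7.40), Kif4 (325 and 5.06) and Kif23 (324 and 5.11), motors of the spindle and midzone. The centromere and kinetochore list gave 21 of 22 in both, with Knl1 (528 and 5.39), the scaffold of the outer kinetochore, Cenpp (470 and 20.2) and Hjurp (347 and 52.4), which loads the centromeric histone. Condensin and replicated chromatin genes gave 12 of 12 in both, with Smc4 (656 and 30.5), Ezh2 (535 and 168), Smc2 (295 and 18.7) and Ncapd2 (281 and 28.3). Of the 15 microcephaly genes other than Aspm, 14 were higher, and 13 within classes, with Cdk5rap2 at 324 and 81.4 CPM and Cit at 223 and 35.6.

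Replication genes were higher with less contrast once the class was held fixed. Of 42 counted S phase genes, 40 were over 2-fold higher over all nuclei at a median ratio of 6.00, and 25 within classes at 2.30. Pola1 was at 559 CPM in cycling and 161 in other nuclei, Atad2, a chromatin ATPase of replicating cells, at 334 and 15.3, Nasp, a histone chaperone, at 223 and 86.1, and the helicase gene Blm at 157 and 35.1. The licensing and fork list gave 27 of 28 and 11 of 28, with Pole at 88.0 and 8.33 and Clspn at 83.8 and 2.92. Homologous recombination and crosslink repair genes were higher in 15 of 15 in both readings, with Rad51b at 365 and 20.8, Polq at 174 and 16.0 and Brip1 at 138 and 9.02.

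Regulators of the cycle were split. Cyclins and their kinases gave 11 of 12 over all nuclei and 6 of 12 within classes. Ccnd2, the D-type cyclin of neural progenitors, was at 403 and 50.4 CPM and its kinase Cdk6 at 242 and 30.8, with within-class medians of 1.36 and 1.45, while the mitotic cyclin genes Ccna2 (76.0 and 3.01) and Ccnb1 (68.8 and 0.515) had within-class medians of 8.08 and 11.5. Cycle inhibitors and pocket proteins gave 4 of 7 and 2 of 7, with Rb1 at 238 and 154, Rbl1 at 150 and 14.6 and Cdkn1b at 58.4 and 17.7. Among transcription factors of the cycle 11 of 12 were higher, and 8 within classes: Foxm1, which drives mitotic genes, was at 87.4 and 1.96, Mybl1 at 97.1 and 5.95, Lin9, of the MuvB core, at 101 and 20.1, and E2f3 at 146 and 52.5.

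Stem cell and Notch genes, unlike the mitotic genes, were higher in the first reading only. All 18 were over 2-fold higher over all nuclei, with Notch1 at 166 and 27.2 CPM, Notch2 at 112 and 38.5, Pax6 at 75.4 and 11.7 and Sox2 at 66.04 and 14.05, and none of the 18 was over 2-fold higher within classes, at a median of 1.06. The stem cell and Notch genes had been kept in the clustering, while the mitotic genes had been left out. Cycling nuclei could thus take their class partly by stem cell genes, and the part of this in the contrast was not tested. Outside the lists, ratios were ranked among genes with at least 100 UMIs in cycling nuclei. Those with the largest included Pif1, a DNA helicase (110 and 0.555 CPM), Arhgef39, Depdc1a (149 and 0.948), Troap, Ska1 of the outer kinetochore, Ankle1, Neil3, a DNA glycosylase of replicating cells (397 and 4.35), Cep55 of the midbody and Depdc1b.

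Myt1l, the gene altered in the Het animals, was counted in the cycling nuclei of every library. In WT it was at 707, 514, 326, 316 and 582 CPM in males 1 to 5 and 582, 392 and 251 in females 1 to 3. In Het it was at 508, 426 and 471 in males 1 to 3 and 654 in the female. The Het libraries lay within the WT range. The means were 459 ± 161 (SD, n = 8) and 515 ± 98.8 (SD, n = 4), a log2 difference of 0.14 with a standard error of 0.22 (edgeR quasi-likelihood test, Benjamini-Hochberg adjusted p = 1.00). Any RNA of the frameshift allele would be counted with the gene, and its amount was not measured, so this level does not check the genotype. Pooled over libraries it was 498 CPM against 1502 in the other nuclei, with 149 in cycling nuclei of the Egfr-led class, 191 in the astroglia or radial glia-like, 223 in the oligodendrocyte, 481 in the GABAergic and 1225 in the Tnc-led class. Cycling fibroblast-like nuclei, which should lack it, were at 255 and the other nuclei of that class at 397. Free RNA was not subtracted, and the levels in the Egfr-led, astroglia or radial glia-like and oligodendrocyte classes were below that of the fibroblast-like class, whose library values ran from 0 to 1118. Whether these levels are expression or background was not tested.

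The paralogs of Myt1l were where their lineages were. Myt1, a factor of oligodendrocyte precursors and neural progenitors, was at 548 CPM in cycling oligodendrocyte lineage-like nuclei, 299 in the GABAergic and 166 in the Egfr-led class. St18 was at 315 CPM in cycling nuclei of the GABAergic class and at most 25.6 in the other 8 classes with at least 30 cycling nuclei. Over all cycling nuclei Myt1 was at 150 ± 56.03 for WT (SD, n = 8) and 133 ± 9.11 for Het (SD, n = 4) and St18 at 55.7 ± 34.6 and 34.7 ± 14.03, and neither passed the test (edgeR, adjusted p = 1.00 for both).

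The makeup of the cycling nuclei did not differ between genotypes beyond the spread of libraries in any of the 6 classes tested. Of each library's cycling nuclei the Egfr-led class took 23.0%, 21.7%, 19.8%, 8.47% and 12.7% in WT males, 28.4%, 25.2% and 29.6% in WT females, 21.3%, 31.1% and 22.1% in Het males and 29.7% in the Het female. The 4 Het libraries were above the WT mean, and the groups overlapped. The means were 21.1% ± 7.34 (SD, n = 8) and 26.0% ± 5.05 (SD, n = 4), which the exact permutation test did not separate (p = 0.263, adjusted over the 6 classes 0.788). The GABAergic class had 13.03% ± 5.89 and 9.06% ± 2.01 with all 4 Het libraries below the WT mean (exact p = 0.202, adjusted p = 0.788), and the oligodendrocyte class 11.4% ± 6.39 and 8.35% ± 3.72 (exact p = 0.408, adjusted p = 0.816). For the astroglia or radial glia-like, fibroblast-like and Tnc-led classes the exact adjusted p ran from 0.927 to 0.986.

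**Figure D4:**
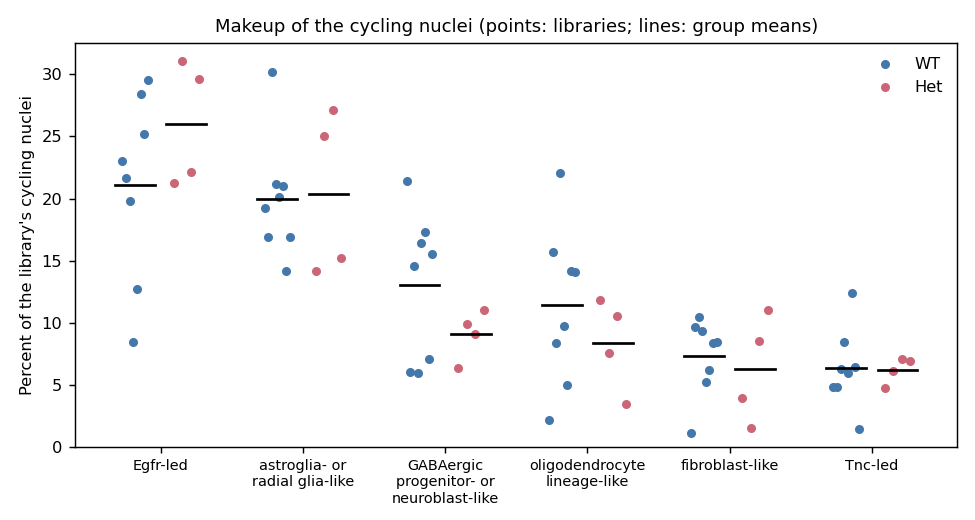
Makeup of the cycling nuclei: each point is 1 library and gives a class as percent of that library's cycling nuclei, with WT in blue and Het in red, and lines mark the group means. The Egfr-led class had means of 21.1% in WT and 26.0% in Het, and in all 6 classes the points of the genotypes overlap.

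The share of each class that was cycling passed the test in none of the 6 classes either. In the Egfr-led class it was 28.8% ± 5.68 for WT (SD, n = 8) and 24.5% ± 5.48 for Het (SD, n = 4), and the exact permutation test gave p = 0.230 (adjusted 0.601). In the oligodendrocyte class it was 1.64%, 3.78%, 5.23%, 13.5% and 5.70% in WT males, 3.20%, 6.20% and 9.90% in WT females, 3.05%, 2.70% and 4.82% in Het males and 3.73% in the Het female. All 4 Het libraries were below the WT mean of 6.15% ± 3.86, at 3.57% ± 0.933, and 3 WT libraries fell in or below their range (exact permutation p = 0.198, adjusted p = 0.601). The GABAergic class had 8.28% ± 3.30 and 11.0% ± 7.24, the astroglia or radial glia-like class 4.43% ± 1.70 and 3.94% ± 1.62, the fibroblast-like class 3.16% ± 1.37 and 2.46% ± 1.88, and the Tnc-led class 4.92% ± 3.04 and 3.70% ± 0.945 (exact adjusted p between 0.601 and 0.651). The share in the GABAergic class also moves with the mix of its 2 clusters. These shares rest on few nuclei, between 4 and 26 in the oligodendrocyte class of a library.

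**Figure D5:**
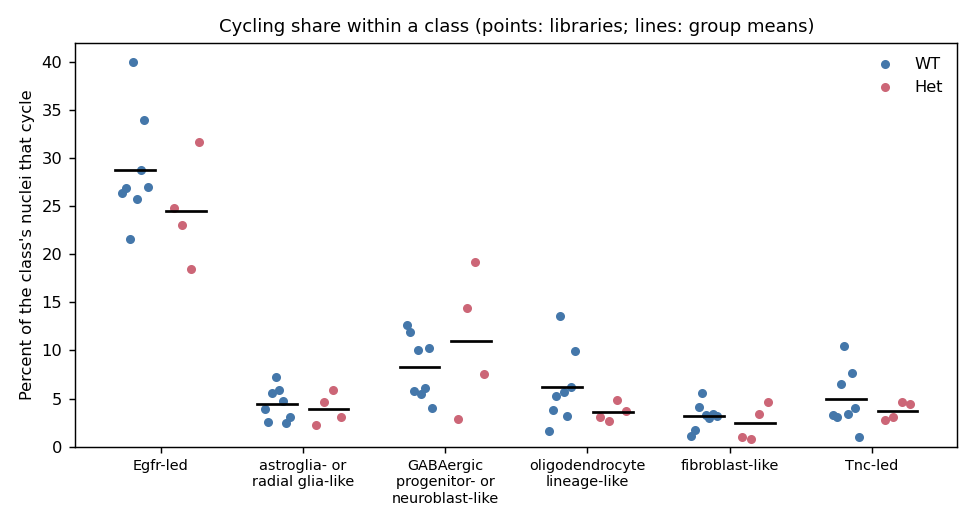
Cycling share within a class: each point is 1 library and gives the percent of its nuclei of a class that met the rule, with WT in blue and Het in red, and lines mark the group means. In the oligodendrocyte class the 4 Het libraries lie between 2.70% and 4.82% and the 8 WT libraries between 1.64% and 13.5%.

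The lists of cycle phases did not differ between genotypes beyond the spread of libraries. The S phase list was at 29.8 ± 3.56 UMIs per 10000 for WT (SD, n = 8) and 29.8 ± 0.716 for Het (SD, n = 4), and the exact permutation test gave p = 0.962 (adjusted 0.962). The G2/M list without rule genes was at 76.9 ± 6.25 and 74.9 ± 0.335 (exact permutation p = 0.533, adjusted p = 0.861), and the ratio of the 2 at 0.387 ± 0.0371 and 0.398 ± 0.0110 (exact permutation p = 0.574, adjusted p = 0.861). In the nuclei that missed the rule the lists were at 5.73 to 6.66 and 6.68 to 8.08.

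No gene passed the test between Het and WT in the sums over cycling nuclei. Of 5863 genes tested 0 were called (0% of genes, edgeR quasi-likelihood test, adjusted p under 0.05 and a log2 difference of at least 0.2), 259 had an unadjusted p under 0.05, and DESeq2 called 0 with 141. The 4 classes tested on their own gave 0 of 1181 genes in the Egfr-led class (61 with an unadjusted p under 0.05), 0 of 1269 in the astroglia or radial glia-like class (64), 0 of 405 in the GABAergic class (25, on 6 WT and 3 Het libraries) and 0 of 774 in the oligodendrocyte class (32, on 5 WT and 3 Het libraries), each 0% of genes. DESeq2 called 0, 0, 1 and 0. In the oligodendrocyte class the 3 Het libraries were all male and the 5 WT libraries of both sexes, so sex and genotype were partly confounded there. With sex as a covariate 0 genes were called in that class. On simulated counts for the sums over all cycling nuclei, the edgeR test on genotype alone found 75.6% of genes changed by 1 and all of those changed by 2 on the log2 scale. The simulated counts took their spread from the trend over level, which leaves out spread particular to single genes. These shares may therefore be too high for the data. Egfr was at 411 ± 116 CPM (SD) over the 8 WT and 480 ± 115 over the 4 Het libraries, Ccnd2 at 427 ± 120 and 366 ± 97.7 and Cdk6 at 235 ± 53.7 and 269 ± 72.9.

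Of 14 lists of cell type markers summed over each library's cycling nuclei, 1 had groups that did not overlap (7.14%), that of intermediate progenitors. This test was added after the values were seen. WT libraries held 0.483, 0.248, 0.191, 0.183 and 0.363 UMIs per 10000 in males and 0.388, 0.387 and 0.488 in females, from 4 to 21.5 UMIs each, and Het libraries 0.521, 0.601 and 1.26 in males and 0.663 in the female, from 15 to 55.5 UMIs each. All 4 Het libraries were above all 8 WT libraries, with means of 0.341 and 0.762 (exact permutation p = 0.00404, the smallest the design allows, adjusted p = 0.0566 over 14 lists), so the difference missed the threshold. Leaving out 1 library cannot undo this separation, so each exact permutation p stayed at the smallest that its splits allow. The exact adjusted p-values ran from 0.0424, without WT female 1, to 0.170. They moved only with the number of splits and with the other lists in the adjustment, so this range does not weigh the difference. Without Het male 3 the difference was 0.254 in place of 0.421. Eomes was at 66.0 CPM in Het male 3, 13.9, 14.1 and 18.1 in Het males 1 and 2 and the Het female, and 34.8 in WT female 3, the highest of WT. In those other 3 Het libraries Gadd45g or Mfng was higher than Eomes, with Gadd45g at 17.4 in male 1 and Mfng at 17.7 in male 2 and 21.1 in the female, against 0 to 20.2 for Mfng in WT. The red blood cell list was at 0 to 0.111 in WT and 0.0905 to 0.247 in Het (exact permutation p = 0.0121, adjusted p = 0.0848), and its part in other differences was not tested.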

How the data were processed

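Nuclei of 12 forebrain libraries had been barcoded by split pooling, and the authors deposited expected counts of UMIs, unnormalized, which they had made for each gene and barcode by running ScaleRna with the mm10 genome, with UMIs that fitted several genes divided between them. How these were divided is not given, and free RNA was not subtracted here. Sums over nuclei were rounded to whole numbers before count models, since whole counts had been assumed. The members, gene lists and tests were chosen with earlier results of these data known. Nuclei that missed the rule were clustered (Leiden, leidenalg 0.10.2, resolution 1.5, 50 components of 3000 variable genes) without 206 listed and 99 further cycle-linked genes, and clusters were named from fixed markers with limits set after the values were seen. Doublet scores were shares of simulated doublets among neighbours, and nuclei were kept whatever the score. Genotypes were compared over libraries by exact permutation of 8 and 4 (numpy 2.4.6), with Benjamini-Hochberg adjustment. Exact binomial intervals were made with scipy 1.17.1. Genes were compared by edgeR 4.0.16 (TMM, filterByExpr, quasi-likelihood) on summed counts in R 4.3.3, with DESeq2 1.42.0 as an alternative. The edgeR step was tested on simulated data. Genes were named by list membership, the 4 with most UMIs per list, and the largest ratios outside the lists, and others are marked as chosen after their values were seen. Some genes named by these rules are not reported here. Intervals cover counting error only, and p-values the spread between animals.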

Additional observations from a re-analysis of the deposited data

Results flagged for a closer look

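Of 38 groups of values examined, 2 held a library far from the others by Dixon's test, where chance gives about 1 in 20. The astroglia or radial glia-like class took 30.2% of the cycling nuclei of WT male 3, with the next WT library at 21.2% and the lowest at 14.2%. The G2/M list stood at 75.4 UMIs per 10000 in Het male 1 against 74.7 to 74.8 in the other 3 Het libraries, a narrow range in which the gap is small against that of the WT libraries.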

How the results depend on the processing

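The 16 results tested over libraries kept their side of the threshold in all 260 alternatives, with a lowest adjusted exact p of 0.275, and 29 of these turned the sign of a difference (Het minus WT). With the replicate block (4 paired libraries of each genotype, smallest exact p 0.125) the share of cycling nuclei differed by 0.0188 percentage points, the astroglia or radial glia-like makeup by -1.46, the oligodendrocyte makeup by 0.579, the oligodendrocyte cycling share by 0.113 and the S phase list by -0.754 UMIs per 10000. Same-numbered libraries correlated between -0.051 and 0.092, so the numbers do not pair them. Clusters at a resolution of 0.8 gave -0.368 for the astroglia or radial glia-like and 0.0661 for the Tnc-led makeup, removal of the highest doublet scores -0.0510 for the astroglia or radial glia-like makeup, and classes by markers alone 0.117 for the fibroblast-like makeup. A minimum of 6 rule-gene UMIs gave 0.983 for the G2/M list, and males alone -0.406 for the S phase list and -0.00433 for its ratio to the G2/M list. Leaving out 1 library at a time ran from -1.85 to 2.47 for the astroglia or radial glia-like makeup, from -2.67 to 0.503 for the fibroblast-like and from -0.839 to 0.724 for the Tnc-led makeup, from -1.13 to 0.0886 for the astroglia or radial glia-like and from -0.0164 to 5.42 for the GABAergic cycling share, and from -0.724 to 0.894 for the S phase list. The cause of these turns was not tested.

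Genes called between genotypes rose from 0 where low counts were not filtered, to 26 in all cycling nuclei, 6 in the Egfr-led, 7 in the astroglia or radial glia-like, 3 in the GABAergic and 2 in the oligodendrocyte class. The 2 in the oligodendrocyte class were Mid1 and Xist (log2 difference -6.43 for Xist, edgeR adjusted p = 1.6e-06). Xist is an RNA of female cells, and the Het libraries of that class were all male, so its call cannot be told apart from sex. DESeq2 called 1 in the GABAergic class, and the paired fit 2 in the Egfr-led and 7 in the GABAergic class. In the GABAergic class the paired fit held male 3 and female 1 of each genotype only, and the numbers do not pair the libraries. Leaving out 1 library gave 0 to 1 calls in all cycling nuclei (Gm29478, without the Het female) and 0 to 1 in the Egfr-led class (Ptprd, without WT female 3). A paired fit was not run for the oligodendrocyte class, whose libraries share 1 number only. Depth limits the classes, where 405 to 1269 genes could be tested.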

Other observations

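Of the 26 genes called in the sums over cycling nuclei without a filter on low counts, 23 were higher in Het. With the filter 0 were called. The 26 included Cdc20b (log2 difference 1.19, edgeR adjusted p = 2.6e-08), the dynein gene Dnah12 (1.23, adjusted p = 9.3e-07), Cfap299 (1.14, adjusted p = 0.000296), Ccdc39 (1.17, adjusted p = 0.000296), Spag16 (0.92, adjusted p = 0.000296) and Deup1 (1.18, adjusted p = 0.0277). These were chosen after their values were seen. Beside them stand the ciliated nuclei that met the rule, 15 in the 8 WT and 23 in the 4 Het libraries, which held 537 of the 540 UMIs of Cdc20b among cycling nuclei, 350 of 365 for Dnah12, 141 of 146 for Deup1 and 245 of 273 for Cfap299, while for Ccdc39 and Spag16 their part was not counted. With the filter Cdc20b differed by 1.20 on the log2 scale (standard error 0.78, edgeR adjusted p = 1.00).

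A further 5 genes, also chosen after their values were seen, were called without the filter in all cycling nuclei and in at least 1 class. These were Mid1 in all 4 classes, Gm47283 in all but the oligodendrocyte class and Rmst in the Egfr-led class alone. Gm29478 and Adamts19 were called in the astroglia or radial glia-like class alone. In the oligodendrocyte class the Het libraries were all male, so sex and genotype were partly confounded in its Mid1 call. With the filter Gm47283 was called in the GABAergic class by DESeq2 (log2 difference 1.84, adjusted p = 0.0201). The paired fit called it in the GABAergic class (1.48, edgeR adjusted p = 0.0361) and in the Egfr-led class (1.57, edgeR adjusted p = 0.0495). That fit used numbers that do not pair the libraries, and in the GABAergic class it held male 3 and female 1 of each genotype only. Adamts19 differed by 1.66 on the log2 scale over all cycling nuclei (edgeR adjusted p = 0.0135 without the filter). Gm47283 was at 795 CPM in WT and 2114 in Het cycling nuclei (log2 difference 1.42, standard error 0.44, edgeR adjusted p = 1.00 with the filter and 5.6e-19 without), and Mid1 at 1065 and 390 (-1.50, standard error 0.85, adjusted p = 1.00 and 1.4e-16). The RNA genes Rmst (31.2 and 115 CPM) and Gm29478 (31.9 and 93.6 CPM) differed by 1.92 (standard error 0.51) and 1.53 (standard error 0.32) on the log2 scale (edgeR adjusted p = 1.00 and 0.790 with the filter). Why the filter moves these p-values was not tested.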
